A study of Rattus norvegicus with 12 samples.

Results

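The genes described here are 49 named components of DNA replication and deoxynucleotide supply, followed in primary rat cardiomyocytes before and during exposure to SIN-1. They were listed by name, with earlier results of these data known, so the list is not independent of its values. A gene counted as measured where a probe of the deposited array table carried its symbol and no other, and the probe with the highest mean over the 12 arrays stood for it. This gave 46 measured genes of 18166 in all. Rrm1, Tk1 and Tipin were not analysed here. The arrays held RNA from untreated control cells and from cells given SIN-1 (3-morpholinosydnoimine) for 70 min, 4 h or 8 h, with 3 arrays in each of the 4 groups. SIN-1 breaks down to nitric oxide together with superoxide, which combine to the oxidant peroxynitrite. All groups were wild-type primary cells kept in a rich medium with fetal bovine and horse serum. The labels give neither the animals' age nor a SIN-1 dose, nor the culture time and vehicle of the control, and every treated time is set against the same 3 control arrays. Biological triplicates are named in the design text without saying whether the cultures were separate, so p-values measure the spread between these arrays.

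Before a cell copies its DNA, the origin recognition complex, Cdc6 and Cdt1 load the ring-shaped MCM helicase onto origins, a step called licensing. Cdc7 kinase with its partner Dbf4, Mcm10, Cdc45 and the GINS complex then turn the loaded ring into a working helicase. DNA polymerase alpha with primase starts each strand, RFC loads the sliding clamp PCNA, polymerases delta and epsilon extend the strands, and Fen1 and ligase 1 join the Okazaki fragments of the lagging strand. Ribonucleotide reductase and thymidylate synthase make the deoxynucleotides. Most of these genes are transcribed late in G1 and in S phase under E2F factors, and cardiomyocytes largely stop dividing soon after birth. In the control arrays the mean log2 level of the 46 measured genes was 6.62 to 6.75, against 5.89 to 5.9 for all genes. That of the mitosis genes read further on was 7.57 to 7.69, with the proliferation marker Mki67 at 9.87 to 10.17. Replication and mitosis transcripts were thus above the average gene without SIN-1. Whether the control cells were dividing was not tested. The arrays measured messenger RNA, and DNA synthesis was not measured.

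The values are log2 expression on a scale normalised between arrays, so a difference of 1 is a 2-fold change. The 12 arrays had similar distributions: arrays of 1 group correlated across genes at 0.9906 to 0.995, and the median over all probes was 5.09 to 5.12 in 70 min replicates 2 and 3 and 4 h replicate 3, against 4.98 to 5.05 in the other 9. Of 15 measured cardiomyocyte markers, 6 had a mean at or above the median gene (5.75), among them Pln at 7.94, Tnnc1 at 7.14 and Myocd at 8.01. The myosin heavy chains Myh6 (3.78) and Myh7 (3.57), the sarcomere protein Actn2 (4.33) and the calcium release channel Ryr2 (4.20) lay below the median of the unnamed probes (4.34), so several defining contractile markers were at the level of background here, and the samples are called cardiomyocytes by their label only. Of 13 fibroblast markers, 10 lay above the median gene, with Fn1 at 12.86, and Pdgfra (5.69), Fbln1 (5.55) and Tcf21 (4.83) lay below it. Of 7 smooth muscle and pericyte markers, 4 were at or above it, among them Tagln at 12.46 and Pdgfrb at 10.19. Myh11, Rgs5 and Des were below. In 1 of 8 endothelial and 1 of 9 leukocyte markers the mean was at or above the median gene. In such bulk RNA, a change in the number of cells of a type and a change in RNA per cell cannot be told apart.

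The main change was a rise of replication transcripts at 70 min and 4 h of SIN-1 that was not found at 8 h. A gene is called changed where the adjusted p of limma's moderated test (Benjamini-Hochberg over all 18166 genes) was under 0.05. At 70 min 27 of the 46 genes were called higher and 0 lower, against 6.76% of all genes called higher and 7.81% lower. At 4 h 20 of 46 were called higher and 0 lower, against 2.08% and 1.77% of all genes, and without 4 h replicate 1 the count was 13. At 8 h 0 of 46 were called in either direction by limma, where 0.022% of all genes were called higher and 0.0055% lower. At that time 1 gene (Cdc6, lower) had an unadjusted p under 0.05. Counts at an unadjusted p, here and further on, have no share of all genes beside them and are not read as results.

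The rises were moderate in size and wide in reach. At 70 min the median log2 difference of the 46 genes was 0.44, against 0.03 for all genes. Above 0 were 45 of 46 differences, and 10034 of 18166 over all genes. At 4 h the median was 0.38 against 0.01, with 46 of 46 above 0, and 9742 of 18166 over all genes. At 8 h the median was 0.01, as for all genes, and single genes ran from -0.52 to 0.25. A call with a change of at least 1.5-fold was reached by 16 genes at 70 min, against 1.43% of all genes, and by 10 at 4 h, against 0.396%. All 3 treated arrays lay above all 3 controls in 36 of the genes at 70 min, against 16.8% of all genes, and in 38 at 4 h, against 11.6%. The mean of the 46 levels in an array was 6.62 to 6.75 in controls, 7.12 to 7.26 at 70 min, 6.98 to 7.16 at 4 h and 6.64 to 6.73 at 8 h. The treated arrays of the early times thus did not overlap the controls, while those of 8 h did.

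**Figure D1:**
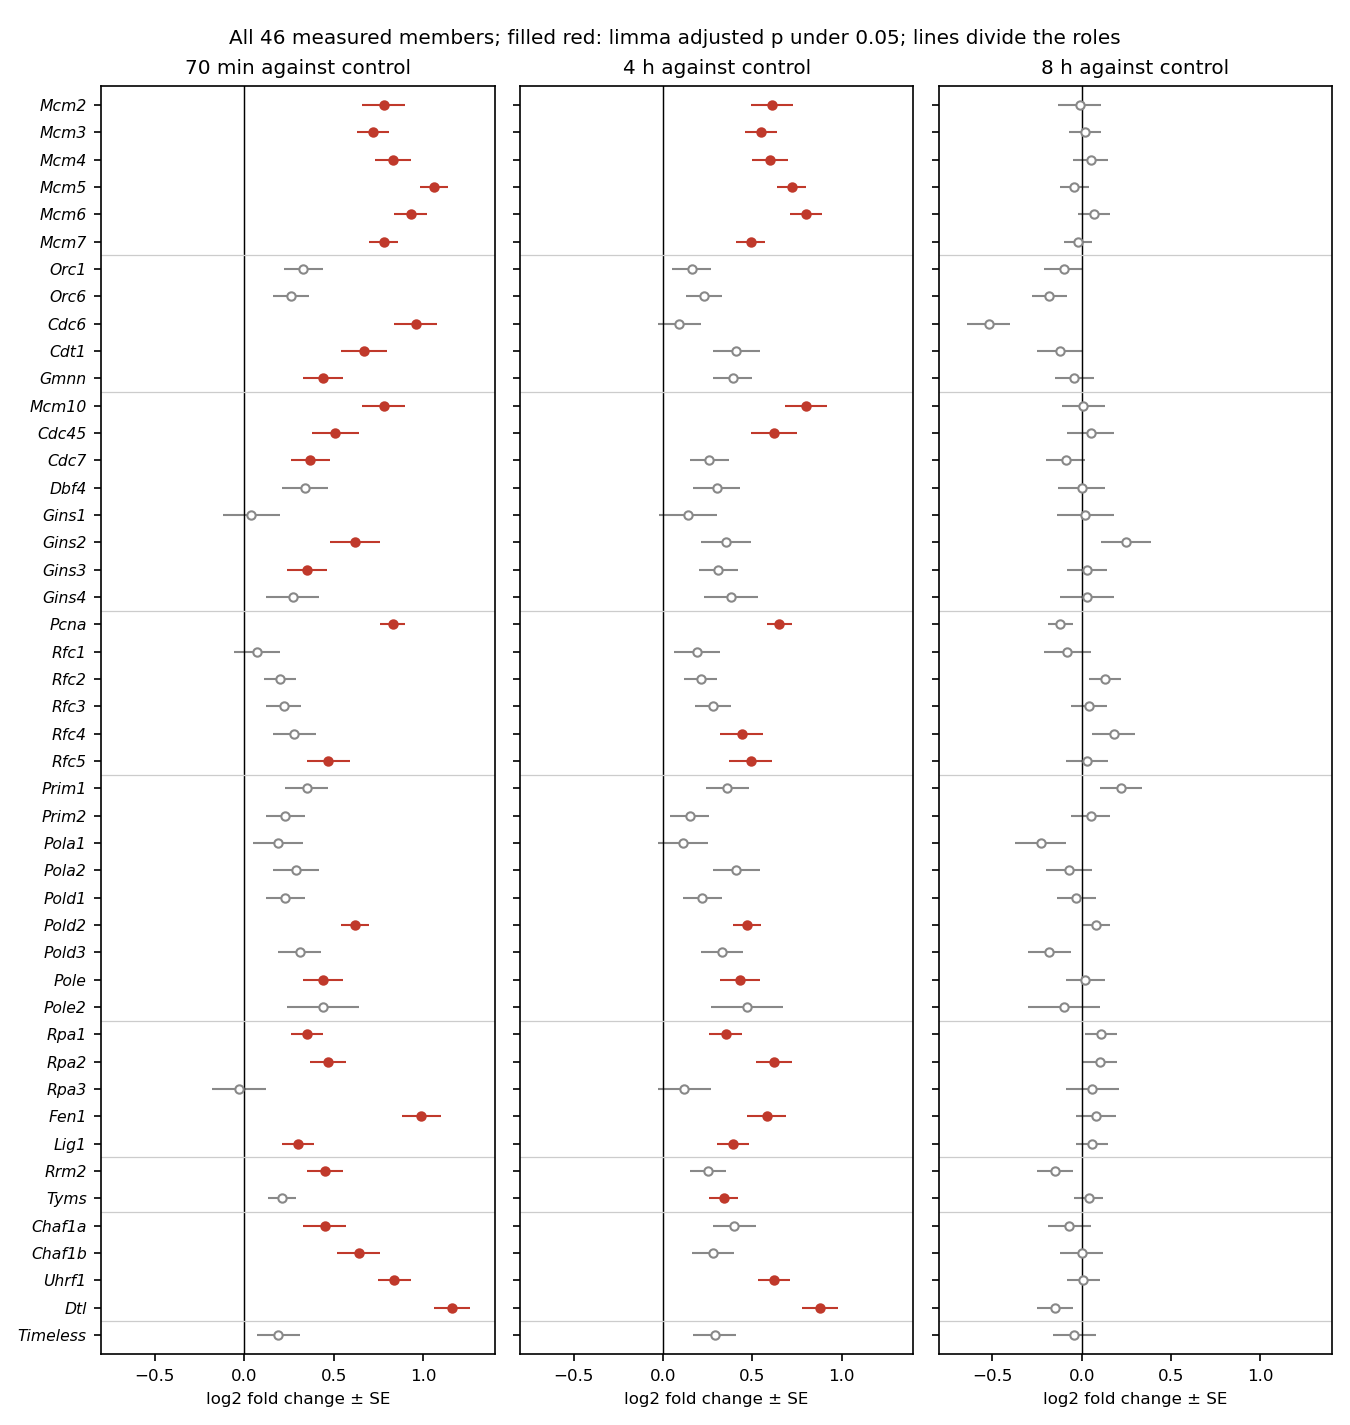
Log2 fold change against control (x axis, ± the SE of the limma fit) of the 46 measured replication genes at 70 min, 4 h and 8 h of SIN-1, ordered by role, with filled red points for adjusted p under 0.05. Points lie to the right of 0 for 45 of 46 genes at 70 min and 46 of 46 at 4 h, and around 0 at 8 h, where Cdc6 stands lowest at -0.52.

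Because many of the genes moved together, their promoters were read for letters they share. RefSeq's table for assembly GRCr8 holds 40 of the 46 (Mcm4, Orc1, Cdc6, Gins4, Rpa3 and Rrm2 had no entry), as windows of 300 bases from 250 before to 50 after the transcript start. The search took the E2F-type letters TTCGCGC or TTGGCGC or TTCCCGC or TTGGCGG on both strands, and matches may overlap. At least 1 of them stood in 32 of 40 promoters (80%), against 14.1% of the 14503 tested genes with an entry and 9.51% of all 33469 promoters. The share was 22 of 26 (84.6%) for genes called higher at 70 min or 4 h and 10 of 14 (71.4%) for genes called at neither. The letters therefore mark most of the family, whether or not a gene was called. A match is a description of the sequence and does not show that a factor was bound.

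The 250 bases upstream of the start are shown for the 4 genes with the largest mean change over the 3 times among those listed and called (Dtl, Mcm6, Mcm5 and Fen1) and the 2 with the smallest among those listed and never called against control (Pola1 and Rfc1), with E2F-type letters in capitals. Dtl lies at chr13:105685922-105686171 (minus strand), Mcm6 at chr13:42404353-42404602 (minus strand), Mcm5 at chr19:13488563-13488812 (plus strand), Fen1 at chr1:216274397-216274646 (minus strand), Pola1 at chrX:62342356-62342605 (minus strand) and Rfc1 at chr14:43319748-43319997 (plus strand), all in GRCr8 and printed 5′ to 3′ on the gene's own strand.
Dtl: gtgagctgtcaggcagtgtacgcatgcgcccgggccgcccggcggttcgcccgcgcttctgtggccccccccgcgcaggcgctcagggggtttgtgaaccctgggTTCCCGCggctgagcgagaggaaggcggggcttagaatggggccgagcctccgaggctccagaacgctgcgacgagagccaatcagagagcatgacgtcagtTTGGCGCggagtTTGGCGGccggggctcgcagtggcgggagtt
Mcm6: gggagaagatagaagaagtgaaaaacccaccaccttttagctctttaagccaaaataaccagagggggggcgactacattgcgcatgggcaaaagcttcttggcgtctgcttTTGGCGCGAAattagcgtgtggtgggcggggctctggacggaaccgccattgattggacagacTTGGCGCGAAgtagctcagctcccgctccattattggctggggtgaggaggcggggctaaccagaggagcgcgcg
Mcm5: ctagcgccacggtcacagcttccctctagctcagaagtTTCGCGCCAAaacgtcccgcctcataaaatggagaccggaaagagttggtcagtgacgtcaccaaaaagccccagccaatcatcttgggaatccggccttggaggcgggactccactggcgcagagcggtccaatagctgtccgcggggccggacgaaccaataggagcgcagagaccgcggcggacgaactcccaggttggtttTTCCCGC
Fen1: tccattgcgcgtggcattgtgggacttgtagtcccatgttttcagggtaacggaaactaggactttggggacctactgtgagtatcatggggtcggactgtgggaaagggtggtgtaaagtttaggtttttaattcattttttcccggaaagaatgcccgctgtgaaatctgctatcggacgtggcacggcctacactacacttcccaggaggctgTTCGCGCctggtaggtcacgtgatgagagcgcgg
Pola1: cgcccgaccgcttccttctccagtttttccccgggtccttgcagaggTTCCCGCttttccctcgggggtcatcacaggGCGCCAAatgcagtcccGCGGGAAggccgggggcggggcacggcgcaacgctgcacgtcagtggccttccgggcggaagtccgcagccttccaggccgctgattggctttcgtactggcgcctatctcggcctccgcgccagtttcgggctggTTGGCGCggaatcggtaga
Rfc1: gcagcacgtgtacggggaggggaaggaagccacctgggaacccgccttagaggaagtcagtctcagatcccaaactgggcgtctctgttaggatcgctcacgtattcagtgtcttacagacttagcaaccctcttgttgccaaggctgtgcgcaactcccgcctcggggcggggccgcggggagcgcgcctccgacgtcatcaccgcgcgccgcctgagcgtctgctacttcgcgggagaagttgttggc

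The Mcm6 promoter held 5 matches, the most of any of the 40, as overlapping pairs that start 138 and 135 and again 75 and 72 bases before the transcript start, and a single one that crosses the start. Mcm5 held 3 matches, of which one overlapping pair lies far upstream and the other match ends at the last base before the start. Dtl held 3 and Fen1 held 1. Pola1, whose transcript was not called against control at any time, held 4, and the 2 matches of Rfc1 cross the start and so are not in the printed stretch. Of 58 matches in the 40 promoters, 47 began between 100 bases before the start and 50 after it. Positions in other promoters were not counted, so this is not shown to be particular to these genes. CCAAT, the letters bound by NF-Y, stood in 24 of 40 promoters (60%) against 38% of the tested genes and 37.5% of all. The CHR letters TTTGAA and TTCGAA, found before many mitotic genes, stood in 7 of 40 (17.5%), the same share as in the tested genes (17.5%), and in 19.7% of all.

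**Figure D2:**
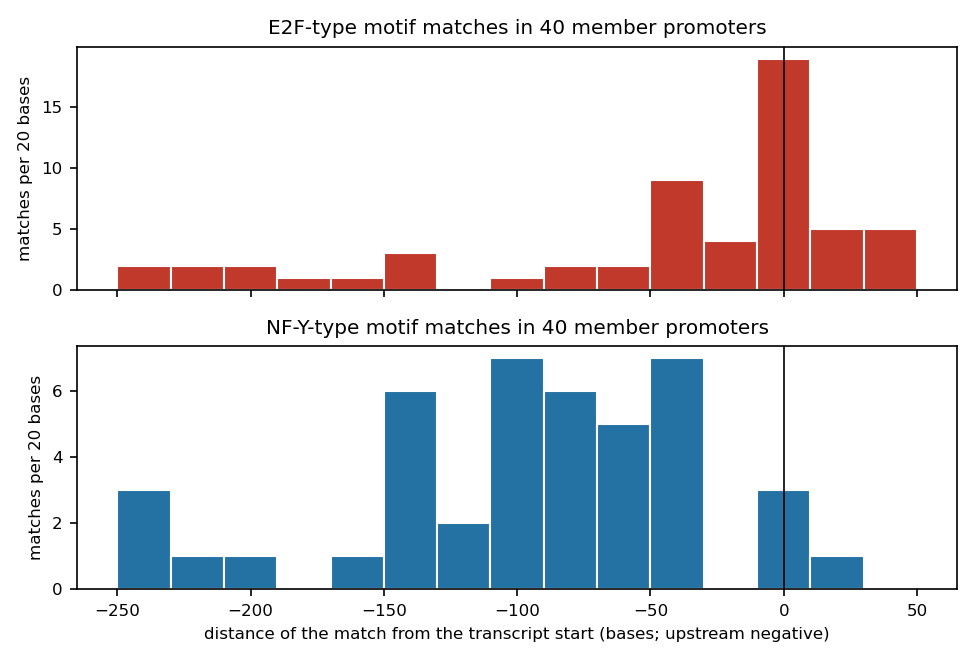
Distance of E2F-type (top) and CCAAT (bottom) matches from the transcript start (x axis, bases, upstream negative) in the 40 member promoters, counted in bins of 20 bases (y axis). Of 58 E2F-type matches 47 began between 100 bases before the start and 50 after it, and CCAAT matches lie mostly upstream of it. Positions in the promoters of other genes were not counted.

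The 6 subunits of the MCM helicase form the ring that unwinds DNA ahead of the fork. They were the only role with every gene called higher at both 70 min (6.76% of all genes) and 4 h (2.08%). Their log2 differences ran from 0.72 to 1.06 at 70 min and from 0.49 to 0.80 at 4 h, and lay between -0.04 and 0.07 at 8 h. Mcm5 stood at 7.09, 7.01 and 7.11 in the controls, at 8.21, 8.13 and 8.05 at 70 min, at 7.83, 7.87 and 7.67 at 4 h and at 7.13, 6.97 and 6.98 at 8 h. It was 2.08-fold higher at 70 min (log2 difference 1.06 ± 0.08, where the error is the SE of the fit here and in what follows, limma adjusted p = 2.94e-07) and 1.65-fold at 4 h (0.72 ± 0.08, adjusted p = 8.87e-05). No array of either early time overlapped a control, whereas the 8 h arrays lay around the control values. Mcm6 stood at 7.57, 7.29 and 7.55 in the controls, at 8.49, 8.40 and 8.32 at 70 min, at 8.37, 8.22 and 8.23 at 4 h and at 7.55, 7.48 and 7.59 at 8 h. The difference was 0.93 ± 0.09 at 70 min (adjusted p = 1.37e-06) and 0.80 ± 0.09 at 4 h (adjusted p = 4.94e-05), so that the rise of Mcm6 at 4 h was the highest of the ring.

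Mcm4, which with Mcm6 and Mcm7 forms the part of the ring with helicase activity, stood at 7.96, 7.83 and 8.02 in the controls, at 8.87, 8.60 and 8.82 at 70 min, at 8.48, 8.74 and 8.40 at 4 h and at 7.95, 8.07 and 7.96 at 8 h. It was higher by 0.83 ± 0.10 at 70 min and 0.60 ± 0.10 at 4 h (limma adjusted p = 1.36e-05 and 0.00124), and all early arrays exceeded the controls. Mcm7 stood at 7.27, 7.15 and 7.31 in the controls, at 8.02, 8.04 and 8.02 at 70 min, at 7.82, 7.77 and 7.61 at 4 h and at 7.21, 7.27 and 7.19 at 8 h. Its arrays at 70 min lay close together and above those of 4 h, which in turn lay above the controls (0.78 ± 0.08 and 0.49 ± 0.08, adjusted p = 4.15e-06 and 0.00176). Mcm2 stood at 7.14, 6.84 and 7.04 in the controls, at 7.88, 7.75 and 7.73 at 70 min, at 7.90, 7.45 and 7.50 at 4 h and at 7.14, 6.91 and 6.94 at 8 h. The first array of 4 h was as high as the highest of 70 min, and both times stood clear of the controls (0.78 ± 0.12 and 0.61 ± 0.12, adjusted p = 0.000187 and 0.00565). Mcm3 stood at 7.13, 7.16 and 7.16 in the controls, at 7.86, 7.92 and 7.82 at 70 min, at 7.74, 7.63 and 7.73 at 4 h and at 7.35, 7.12 and 7.02 at 8 h. Early arrays again lay above the controls without overlap (0.72 ± 0.09 and 0.55 ± 0.09, adjusted p = 2.88e-05 and 0.00143). A second probe of Mcm3 gave 0.41 at 70 min and 0.28 at 4 h, the latter not past the threshold (adjusted p = 0.0855), and a second probe of Mcm4 gave 0.57 and 0.55, both past it.

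Of the 5 genes that recognise origins or load the ring, 3 were called higher at 70 min, against 6.76% of all genes. At 4 h 0 were, against 2.08%. Cdc6, the ATPase that loads MCM rings together with Cdt1, stood at 5.31, 5.14 and 5.11 in the controls, at 6.24, 5.99 and 6.20 at 70 min, at 5.27, 5.30 and 5.23 at 4 h and at 4.77, 4.61 and 4.60 at 8 h. It was 1.95-fold higher at 70 min (0.96 ± 0.12, limma adjusted p = 2.53e-05), and no array overlapped the controls. At 4 h it was back among the controls (0.09 ± 0.12, adjusted p = 0.811). At 8 h all 3 arrays lay below every control, with a difference of -0.52 ± 0.12 that did not pass the threshold (adjusted p = 0.236); with arrays weighted by their scatter it was -0.56 and passed (adjusted p = 0.025), and over all alternatives the adjusted p ran from 0.025 to 0.997. This was the only gene of the 46 with an unadjusted p under 0.05 at 8 h. All 3 arrays of 8 h lay below the controls in 3 of the genes (Orc6, Cdc6 and Dtl), against 5.24% of all genes, and above them in 1 (Prim1), against 7.98%.

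Cdt1, the other loading factor, stood at 5.52, 5.37 and 5.68 in the controls, at 6.10, 6.32 and 6.16 at 70 min, at 6.07, 5.92 and 5.80 at 4 h and at 5.53, 5.48 and 5.21 at 8 h. The rise at 70 min was 0.67 ± 0.13 (limma adjusted p = 0.00133). At 4 h the arrays still lay above the controls, by 0.41 ± 0.13, without passing the threshold (adjusted p = 0.092). Gmnn encodes geminin, the inhibitor that binds Cdt1 and keeps origins from being licensed again. It stood at 6.16, 6.16 and 6.30 in the controls, at 6.77, 6.66 and 6.50 at 70 min, at 6.73, 6.57 and 6.47 at 4 h and at 6.28, 6.19 and 6.02 at 8 h. The difference was 0.44 ± 0.11 at 70 min (adjusted p = 0.0117) and 0.39 ± 0.11 at 4 h (adjusted p = 0.0646), with all early arrays above the controls. The 70 min call of Gmnn ended without control replicate 1 (adjusted p = 0.0531) or with arrays centred on their medians (0.0644). Without the 3 arrays of highest median, which leaves only replicate 1 at 70 min, the Cdt1 difference was 0.58. Orc1 and Orc6, subunits of the complex that marks origins, were not called, with differences of 0.33 ± 0.11 and 0.26 ± 0.10 at 70 min (adjusted p = 0.0636 and 0.0814).

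Among the 8 genes that fire licensed origins, 5 were called higher at 70 min, against 6.76% of all genes. At 4 h 2 were, against 2.08%. Mcm10, which helps turn the loaded rings into active helicases, stood at 6.31, 6.02 and 6.18 in the controls, at 7.03, 6.90 and 6.92 at 70 min, at 7.13, 7.06 and 6.71 at 4 h and at 6.29, 6.24 and 6.01 at 8 h. Both early times were far above the controls and alike in size (0.78 ± 0.12 and 0.80 ± 0.12, limma adjusted p = 0.000258 and 0.000914). Cdc45, a part of the active helicase, stood at 5.55, 5.69 and 5.55 in the controls, at 6.23, 6.0 and 6.07 at 70 min, at 6.49, 6.18 and 5.98 at 4 h and at 5.58, 5.63 and 5.72 at 8 h. It was higher by 0.51 ± 0.13 at 70 min and 0.62 ± 0.13 at 4 h (adjusted p = 0.0117 and 0.00913), with no overlap. The first call ended without control replicate 1 (adjusted p = 0.051) and the second without 4 h replicate 1 (0.0572), the array with the highest value.

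Gins2, a subunit of the GINS complex that joins Cdc45 and MCM, stood at 5.55, 5.33 and 5.10 in the controls, at 5.97, 6.21 and 5.68 at 70 min, at 5.73, 5.72 and 5.58 at 4 h and at 5.59, 5.68 and 5.47 at 8 h. It rose at 70 min (0.62 ± 0.14, limma adjusted p = 0.00634) and was 0.35 ± 0.14 above control at 4 h without passing the threshold (adjusted p = 0.245). Its controls spread widely, from 5.10 to 5.55, and the 8 h arrays overlapped only the highest of them (0.25 ± 0.14, adjusted p = 0.937). Of the other GINS subunits, Gins3 was called at 70 min (0.35 ± 0.11, adjusted p = 0.0395), a call kept only without control replicate 3 among the 6 fits that left out 1 array of the pair of groups, and Gins1 and Gins4 were not called (0.04 ± 0.16 and 0.27 ± 0.15). The kinase gene Cdc7 was called at 70 min (0.37 ± 0.11, adjusted p = 0.0331), and the call ended in every one of those 6 fits (adjusted p from 0.0522 to 0.112). Its activating partner Dbf4 differed by 0.34 ± 0.13 at 70 min and was not called (adjusted p = 0.0809).

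**Figure D3:**
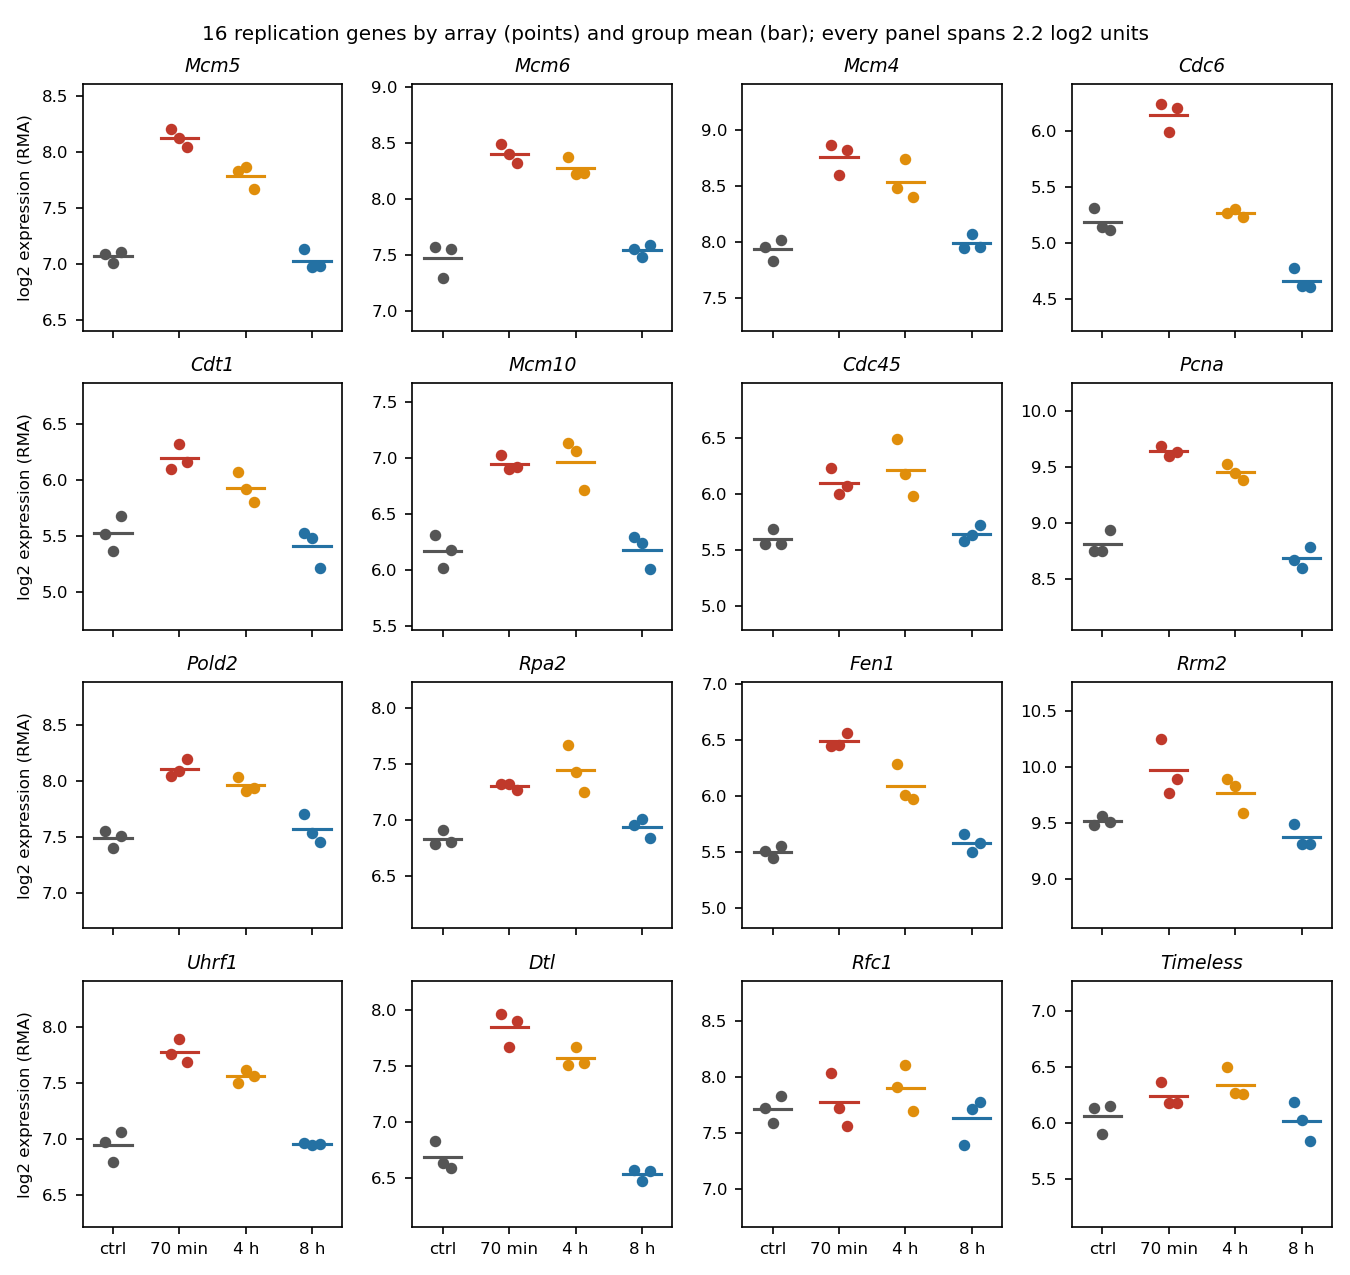
Log2 expression of 16 replication genes in each of the 12 arrays (points) with the group mean (bar), for control, 70 min, 4 h and 8 h of SIN-1, each panel spanning the same range. The early arrays stand above the controls in panels such as Mcm5, Pcna and Dtl, the 8 h arrays of Cdc6 stand below them, and the groups of Rfc1 overlap.

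The sliding clamp and its loader differed within 1 role. Pcna, the ring that tethers polymerases to DNA, stood at 8.75, 8.75 and 8.94 in the controls, at 9.69, 9.60 and 9.64 at 70 min, at 9.53, 9.45 and 9.39 at 4 h and at 8.67, 8.60 and 8.79 at 8 h. It was 1.78-fold higher at 70 min (0.83 ± 0.07, limma adjusted p = 5.1e-07) and 1.57-fold at 4 h (0.65 ± 0.07, adjusted p = 5.23e-05). The early groups were well separated from the controls, and the 8 h arrays overlapped them (-0.12 ± 0.07, adjusted p = 0.937). Rfc1, the large subunit of the clamp loader, stood at 7.73, 7.59 and 7.83 in the controls, at 8.04, 7.73 and 7.57 at 70 min, at 7.91, 8.11 and 7.70 at 4 h and at 7.40, 7.72 and 7.78 at 8 h. Its groups overlapped at every time (0.07 ± 0.13, 0.19 ± 0.13 and -0.08 ± 0.13, adjusted p = 0.792, 0.543 and 0.991).

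Of the small loader subunits, Rfc5 was called at both early times (0.47 ± 0.12 and 0.49 ± 0.12, limma adjusted p = 0.0121 and 0.0272) and Rfc4 at 4 h (0.44 ± 0.12, adjusted p = 0.0478). These calls depended on single arrays. The 70 min call of Rfc5 ended without control replicate 1 or 70 min replicate 2, its 4 h call without control replicate 1 or 2 or 4 h replicate 1 or 2 (adjusted p up to 0.16), and that of Rfc4 without control replicate 2 or 3 or 4 h replicate 1 or 2 (up to 0.253). Rfc2 and Rfc3 differed by 0.21 ± 0.09 and 0.28 ± 0.10 at 4 h and were not called.

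Of the 9 primase and polymerase genes, 2 were called at 70 min and 2 at 4 h, the same pair each time. The shares of all genes called higher were 6.76% and 2.08%. Pold2, the accessory subunit of the lagging-strand polymerase delta, stood at 7.56, 7.40 and 7.51 in the controls, at 8.05, 8.09 and 8.20 at 70 min, at 8.04, 7.91 and 7.94 at 4 h and at 7.71, 7.54 and 7.46 at 8 h. It was higher by 0.62 ± 0.08 and 0.47 ± 0.08 (limma adjusted p = 7.48e-05 and 0.00326), and no early array overlapped a control. Pole, the catalytic subunit of the leading-strand polymerase epsilon, rose by 0.44 ± 0.11 and 0.43 ± 0.11 (adjusted p = 0.0135 and 0.0463). Its 70 min call ended without control replicate 2 (adjusted p = 0.0684), and its 4 h call was kept only without 4 h replicate 3, with adjusted p up to 0.21. The other 7 (Prim1, Prim2, Pola1, Pola2, Pold1, Pold3 and Pole2) were not called against control. Of all 9, called or not, 7 had all 70 min arrays above the controls, against 16.8% of all genes. The exceptions were Pola1 and Pola2. The primase gene Prim1 came nearest to the threshold at 70 min (0.35 ± 0.12, adjusted p = 0.0519), and its second probe gave 0.29 and passed (0.047). Prim1 also passed in 1 of the 6 fits with 1 array left out (without 70 min replicate 3), with adjusted p from 0.0186 to 0.186. Over 11 other alternative fits, 1 of them with only replicate 1 at 70 min, its difference ran from 0.28 to 0.62. The initiating polymerase subunit Pola1 differed by 0.19 ± 0.14, 0.11 ± 0.14 and -0.23 ± 0.14, and its treated arrays overlapped the controls at each time. Its 70 min and 8 h arrays did not overlap, with 6.81 the lowest at 70 min and 6.73 the highest at 8 h. The Pola1 promoter, printed among the sequences, holds 4 E2F-type matches. Pole2 had the widest error (0.44 ± 0.20 at 70 min), with 4 h arrays at 5.43, 5.63 and 4.75 and controls from 4.74 to 4.85.

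Of the genes that coat single strands or join Okazaki fragments, 4 of 5 were called at each early time. For all genes the higher calls were 6.76% at 70 min and 2.08% at 4 h. Fen1, the flap endonuclease that trims the fragments, stood at 5.51, 5.45 and 5.55 in the controls, at 6.45, 6.46 and 6.56 at 70 min, at 6.29, 6.01 and 5.97 at 4 h and at 5.66, 5.50 and 5.58 at 8 h. It was 1.98-fold higher at 70 min (0.99 ± 0.11, limma adjusted p = 1.02e-05) and 1.5-fold at 4 h (0.58 ± 0.11, adjusted p = 0.00502). The steps from control to 4 h and from 4 h to 70 min were free of overlap. Rpa2, a subunit of the single-strand binding protein RPA, stood at 6.79, 6.91 and 6.80 in the controls, at 7.32, 7.32 and 7.27 at 70 min, at 7.67, 7.43 and 7.25 at 4 h and at 6.96, 7.01 and 6.84 at 8 h. It was higher at 70 min (0.47 ± 0.10, adjusted p = 0.00391) and at 4 h (0.62 ± 0.10, adjusted p = 0.00163), where the arrays spread more. Rpa1 (0.35 ± 0.09 and 0.35 ± 0.09) and Lig1, the ligase that seals the fragments (0.30 ± 0.09 and 0.39 ± 0.09), were called at both times with adjusted p from 0.0123 to 0.0361. The Rpa1 call ended without control replicate 3 or 70 min replicate 3 at 70 min, and the Lig1 call was kept there only without 70 min replicate 3. At 4 h both were kept only without 4 h replicate 3. Rpa3, the smallest RPA subunit, differed by -0.03 ± 0.15 at 70 min and was the 1 gene of 46 below 0 there (adjusted p = 0.919).

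For deoxynucleotide supply only 2 of the named genes were measured, each called at 1 time. Higher calls over all genes were 6.76% at 70 min and 2.08% at 4 h. Rrm2, the small subunit of ribonucleotide reductase, stood at 9.48, 9.56 and 9.51 in the controls, at 10.25, 9.77 and 9.89 at 70 min, at 9.89, 9.83 and 9.59 at 4 h and at 9.49, 9.31 and 9.31 at 8 h. It was higher by 0.45 ± 0.10 at 70 min (limma adjusted p = 0.0056), most in replicate 1, and by 0.25 ± 0.10 at 4 h without passing the threshold (adjusted p = 0.226). All early arrays lay above the controls. Its second probe gave 0.42 and 0.40, the latter not past the threshold, and the 70 min call ended with arrays centred on their medians (adjusted p = 0.052). Tyms, thymidylate synthase, was called at 4 h (0.34 ± 0.08, adjusted p = 0.0249) and not at 70 min (0.21 ± 0.08, adjusted p = 0.107). The 4 h call ended without control replicate 1 or 2 or 4 h replicate 1 or 2 (adjusted p up to 0.142).

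The 4 genes of chromatin assembly and replication-coupled ubiquitin ligases were all called higher at 70 min, against 6.76% of all genes. At 4 h 2 of them were, against 2.08%. Dtl, the substrate receptor that sends Cdt1 for destruction when bound to PCNA on DNA, had the largest change of the 46 genes at 70 min and at 4 h. It stood at 6.83, 6.63 and 6.59 in the controls, at 7.97, 7.67 and 7.90 at 70 min, at 7.51, 7.67 and 7.53 at 4 h and at 6.57, 6.47 and 6.56 at 8 h. This was 2.24-fold at 70 min (1.16 ± 0.10, limma adjusted p = 4.48e-07) and 1.85-fold at 4 h (0.88 ± 0.10, adjusted p = 6.07e-05). Both early groups were far above the controls, and at 8 h all 3 arrays lay just below them (-0.15 ± 0.10, adjusted p = 0.938).

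Uhrf1, which reads hemimethylated DNA behind the fork, stood at 6.97, 6.79 and 7.06 in the controls, at 7.76, 7.89 and 7.68 at 70 min, at 7.50, 7.61 and 7.56 at 4 h and at 6.96, 6.94 and 6.95 at 8 h. It was higher by 0.84 ± 0.09 and 0.62 ± 0.09 (limma adjusted p = 5.87e-06 and 0.00058), and the 70 min arrays also exceeded those of 4 h. Chaf1b, a subunit of the histone chaperone CAF-1, stood at 6.17, 5.98 and 6.24 in the controls, at 6.64, 6.75 and 6.92 at 70 min, at 6.31, 6.55 and 6.36 at 4 h and at 6.18, 6.31 and 5.90 at 8 h. It rose at 70 min (0.64 ± 0.12, adjusted p = 0.00175), and its 4 h difference of 0.28 ± 0.12 did not pass (adjusted p = 0.294) although no array overlapped. Chaf1a, the large CAF-1 subunit, rose by 0.45 ± 0.12 at 70 min (adjusted p = 0.0168). That call ended without control replicate 1 or 70 min replicate 1 or 2 (adjusted p up to 0.104). With the 3 arrays of highest median left out, Chaf1b has only replicate 1 at 70 min, so no call is given for that fit. Timeless, a fork protection gene, stood at 6.13, 5.90 and 6.15 in the controls, at 6.37, 6.18 and 6.18 at 70 min, at 6.50, 6.27 and 6.26 at 4 h and at 6.19, 6.03 and 5.84 at 8 h. It was above all controls at 70 min and 4 h by 0.19 ± 0.12 and 0.29 ± 0.12, and was not called (adjusted p = 0.35 and 0.26).

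The treated times were next compared with each other. Between 70 min and 4 h most of the genes were not called: 4 of 46 were called lower at 4 h, against 3.15% of all genes, and 0 higher, against 4.48%. These were Cdc6 (-0.87), Fen1 (-0.40), Mcm5 (-0.34) and Mcm7 (-0.30), of which Cdc6 alone stayed called in each fit that left out 1 of the 6 arrays. The call of Fen1 ended without 70 min replicate 2 or 3 or 4 h replicate 2 or 3, that of Mcm5 without 70 min replicate 1 or 2 or 4 h replicate 3, and that of Mcm7 without 70 min replicate 2 or 3 or 4 h replicate 2 or 3. The 3 last calls also ended when arrays were centred on their medians. The group mean was highest at 70 min in 27 genes and at 4 h in 19.

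From 4 h to 8 h the transcripts fell. Of the 46 genes 22 were called lower and 0 higher, against 1.54% and 1.97% of all genes, with a median log2 difference of -0.40 against -0.01. Dtl fell by 1.03, Mcm10 by 0.78, Pcna by 0.77, Mcm5 by 0.76 and Mcm6 by 0.73, and the 6 MCM genes were all called. The count was 12 without 4 h replicate 1, 13 without 8 h replicate 2 and 14 without 8 h replicate 3. From 70 min to 8 h 26 of 46 were called lower and 0 higher, against 6.43% and 9.56% of all genes, with a median of -0.44 against -0.03. Cdc6 fell by 1.48 over that interval, Dtl by 1.31 and Mcm5 by 1.10. Over the 4 groups, limma's F test had an adjusted p under 0.05 for 31 of 46 genes, against 15.3% of all genes.

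**Figure D4:**
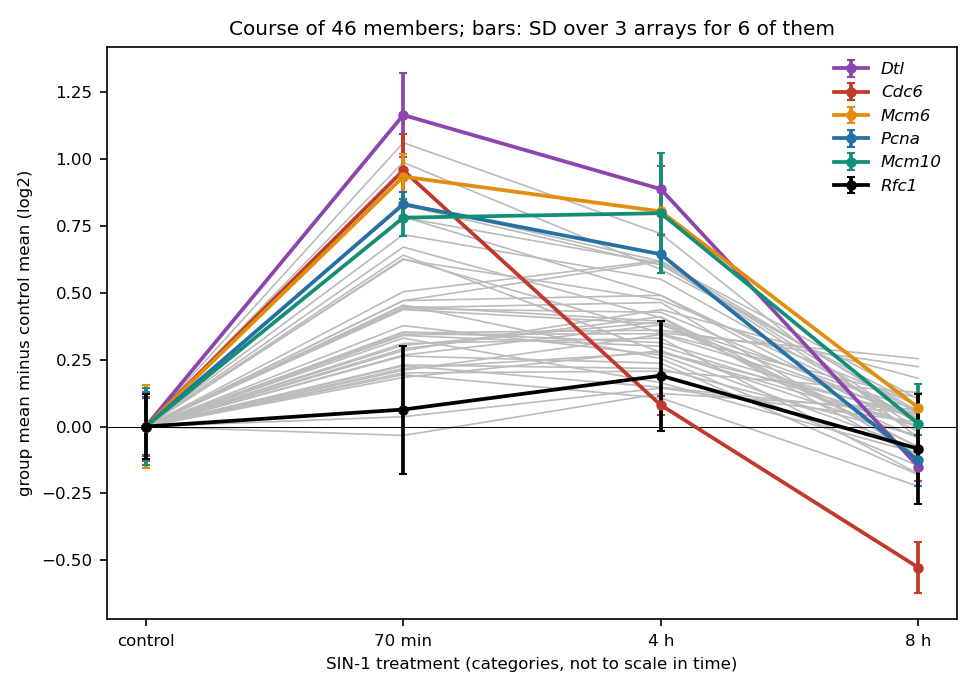
Group mean minus control mean on the log2 scale (y axis) of all 46 measured genes over control, 70 min, 4 h and 8 h (x axis, categories), with 6 genes in colour and SD bars over 3 arrays. Dtl, Mcm6, Pcna and Mcm10 stay high at 4 h and return to control at 8 h, whereas Cdc6 is back by 4 h (0.09) and lower at 8 h (-0.52), and Rfc1 stays near 0.

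A wider list of replication genes that are not among the 49 was read next. Of 38 such genes 15 were called higher and 2 lower at 70 min (39.5% and 5.26%, median 0.29). At 4 h 5 were higher and 1 lower (13.2% and 2.63%, median 0.26). Of all genes 6.76% were higher and 7.81% lower at 70 min, and 2.08% and 1.77% at 4 h. At 8 h 0 of the 38 were called in either direction by limma, where the background is 0.022% and 0.0055%, and 2 had an unadjusted p under 0.05. Hells, a chromatin remodeller, differed by 0.77 at 70 min, Clspn, the checkpoint adaptor claspin, by 0.76 and the exonuclease Exo1 by 0.68. Lower at 70 min were Ctc1, of the telomere-capping CST complex (-0.72), and the origin recognition subunit Orc3 (-0.63). At 4 h the origin-firing factor Ticrr (0.81), Clspn (0.73) and Brca1 (0.66) were higher and Ctc1 was lower (-0.30).

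For nucleotide supply beyond the named genes, 10 of 22 were called higher and 1 lower at 70 min (45.5% and 4.55%, median 0.27). At 4 h 2 were higher and 0 lower (9.09% and 0%, median 0.16). The shares of all genes were 6.76% and 7.81% at 70 min and 2.08% and 1.77% at 4 h. At 8 h 0 of the 22 were called by limma, against 0.022% and 0.0055% of all genes, and 0 had an unadjusted p under 0.05. Shmt1, a folate enzyme, differed by 0.66 at 70 min, Ppat, which starts purine synthesis, by 0.62 and deoxycytidine kinase Dck by 0.47. Dguok, the mitochondrial deoxyguanosine kinase, was lower (-0.64). At 4 h Dck (0.60) and the folate enzyme Mthfd1 (0.40) were called.

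Among 26 E2F factors and G1/S regulators, 10 were higher and 5 lower at 70 min (38.5% and 19.2%, median 0.31). At 4 h 6 were higher and 1 lower (23.1% and 3.85%, median 0.13). The shares of all genes were 6.76% and 7.81% at 70 min and 2.08% and 1.77% at 4 h. At 8 h 0 of the 26 were called by limma, against 0.022% and 0.0055% of all genes, and 0 had an unadjusted p under 0.05. Mybl2, a transcription factor of proliferating cells, rose by 1.35 at 70 min and 0.90 at 4 h, the cyclin Ccne2 by 0.99 at 70 min, and the repressor E2f7 by 0.72 and 0.53. Rbl1, a pocket protein, was 0.49 higher at 4 h. Lower at 70 min were Myc (-0.78), the pocket protein Rbl2 (-0.68) and the E2F partner Tfdp2 (-0.65), and Myc was still lower at 4 h (-0.65).

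Genes of mitosis, the later phase of the cycle, were read in the same way. Of 37 measured, 2 were called higher at 70 min (Mad2l1 at 0.42 and Incenp at 0.41; median of the list 0.06) and 3 at 4 h (Bub1b at 0.43, Incenp at 0.42 and the kinase Plk1 at 0.29; median 0.19), with 0 lower at either time. The higher calls are 5.41% of the list at 70 min, against 6.76% of all genes, and 8.11% at 4 h, against 2.08%. The 0 lower calls stand against 7.81% and 1.77% of all genes. At 8 h 0 of the 37 were called by limma, against 0.022% and 0.0055% of all genes. At an unadjusted p under 0.05 there were 6, for which no share of all genes is given. All 8 h arrays lay below the controls in 5 of the 37 and above them in 2, against 5.24% and 7.98% of all genes. No test of the difference between lists was made. In the promoters of the mitotic list E2F-type letters stood in 8 of 32 (25%), CCAAT in 25 (78.1%) and the CHR letters in 26 (81.2%). E2F-type letters stood in 24 of 35 promoters (68.6%) of the wider replication list and in 7 of 16 (43.8%) of the E2F and G1/S list.

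**Figure D5:**
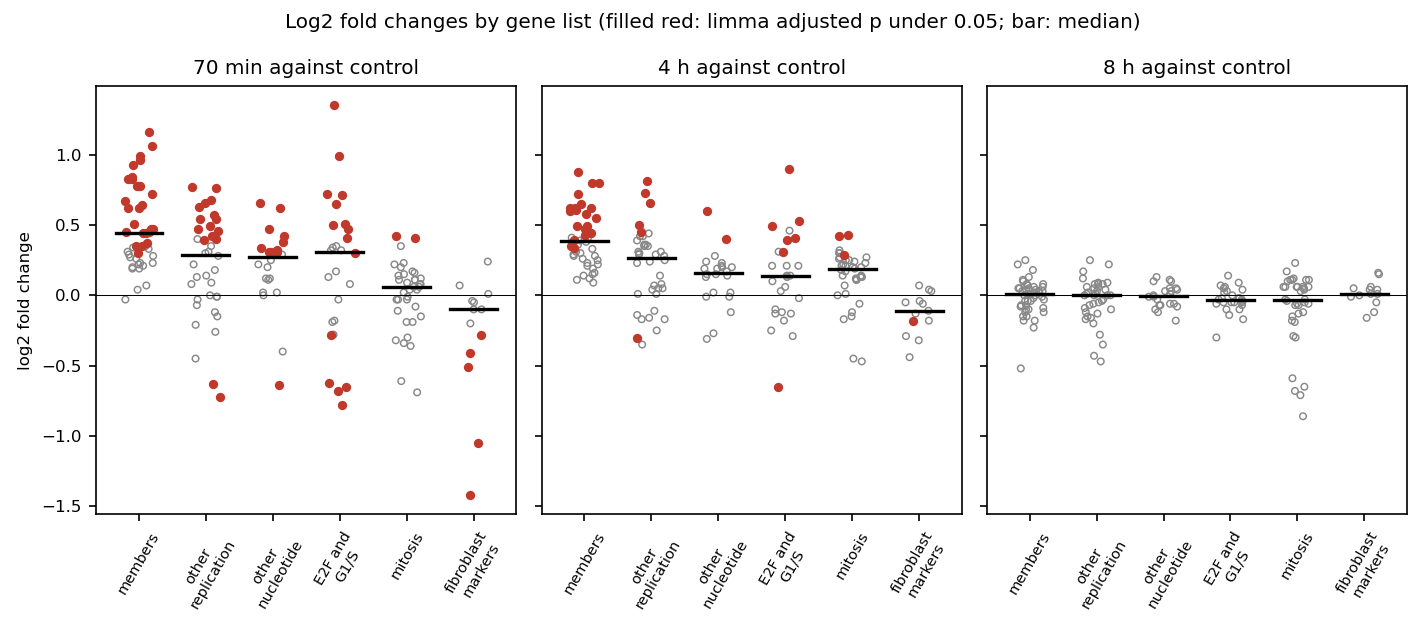
Log2 fold change against control (y axis) of each gene in 6 lists at 70 min, 4 h and 8 h, with filled red points for limma adjusted p under 0.05 and a bar at the median. The 46 replication genes have medians of 0.44, 0.38 and 0.01, and the mitotic genes medians of 0.06 and 0.19 at the early times.

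Some cell type markers were also called. At 70 min 5 of 13 fibroblast markers were called lower (38.5%, against 7.81% of all genes) and 0 higher. They were Lum (-1.42), Dcn (-1.05), Mmp2 (-0.51), Col3a1 (-0.41) and Ddr2 (-0.28). At 4 h 1 was lower (Col3a1 at -0.18), 7.69% against 1.77% of all genes. The mean level of the 13 was 9.03 to 9.08 in controls, 8.72 to 8.80 at 70 min, 8.89 to 8.99 at 4 h and 9.03 to 9.14 at 8 h. The median log2 difference of the 13 at 70 min was -0.10, and 3 of them were above 0, by up to 0.24. None of the 13 lay below the median of the unnamed probes. Of 15 cardiomyocyte markers 1 was higher (Gata4 at 0.50) and 1 lower (Myocd at -0.28) at 70 min. This is 6.67% in each direction and near the background of 6.76% and 7.81%. At 4 h 2 were lower (Pln and Myocd, each at -0.44), 13.3% against 1.77% of all genes, and 0 higher, against 2.08%. The mean level of the 15 overlapped between groups (5.36 to 5.49 in controls, 5.31 to 5.60 at 70 min, 5.28 to 5.41 at 4 h and 5.27 to 5.43 at 8 h). Of 8 endothelial markers Flt1 was higher (0.95) and Tek lower (-0.88) at 70 min, 12.5% in each direction. At 4 h 0 were called by limma (3 at an unadjusted p under 0.05). The mean level of the 8 was 4.66 to 4.73 in controls, 4.69 to 4.88 at 70 min, 4.67 to 4.84 at 4 h and 4.66 to 4.79 at 8 h. Of 7 smooth muscle and pericyte markers Tagln was higher at 70 min (0.13) and Pdgfrb lower at 4 h (-0.49, limma adjusted p = 6.14e-05). Each is 14.3% of the list. Mean levels of the 7 were 7.93 to 8.05 in controls, 7.96 to 8.06 at 70 min, 7.85 to 7.93 at 4 h and 7.96 to 8.01 at 8 h. Of 9 leukocyte markers 0 were called against control by limma (2, 1 and 1 at an unadjusted p under 0.05 at 70 min, 4 h and 8 h), with mean levels of 4.52 to 4.58 in controls and 4.52 to 4.81 over the treated arrays. The part of these shifts, and of the higher medians of 3 treated arrays, in the rise of the replication genes was not tested. Leaving out those 3 arrays left only replicate 1 at 70 min, so no count is given for that time. At 4 h, where replicates 1 and 2 were left, 23 of 46 genes were called higher, against 1.82% of all genes.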

How the data were processed

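Total RNA of 12 samples was hybridised to single-colour whole-transcript arrays. Per the submitters' processing notes, the authors used RMA in Affymetrix Expression Console 1.3.1.187; the deposited table holds 36685 probes. No unit is stated, and the deposited values, from 1.19 to 13.63, were read as log2 expression. RMA corrects background, normalises quantiles between arrays and summarises probes, which removes differences in total RNA and compresses folds near background. Filters, and a build, are not given in sources used here.

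Probes were named through the platform's annotation: 18511 had 1 symbol, 575 had several and 17599 were unlisted. The 18166 genes were fitted with limma 3.58.1 under R 4.3.3 (lmFit, then contrasts.fit, then eBayes with trend) on all 12 arrays, with two-sided tests of 6 comparisons, each adjusted by Benjamini-Hochberg over all genes. The number of arrays limits the precision. On simulated data for 70 min against control over 18166 genes, 95% of 100 genes with a log2 change of 1 were recovered, 40% of 50 with a change of 0.5 and 10% of 50 with a change of 0.3, and 10 unchanged genes were called. The simulation changed fewer genes than were called at 70 min (1228 higher and 1419 lower), which makes its adjusted threshold stricter. The shares recovered are thus not those of the data, at 70 min or at other times.

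The members, the wider lists and the markers were chosen with earlier results of these data known. Values of every array are given for members called against control with a log2 change of at least 0.5, for Pcna, Rrm2, Rfc1 and Gmnn, and for the member with the lowest F test p of a role without one; other members are given by differences. Of the wider lists the 3 largest called genes in each direction are named. Alternatives were robust eBayes or eBayes without trend, weights for arrays, the replicate number as a block, further normalisation or centring, the array median as covariate, the arrays of highest median left out, only the brighter genes or only the compared groups, averaged probes, a fold of at least 1.5, and each array left out in turn. Promoters came from RefSeq (GRCr8). Figures were drawn with matplotlib 3.10.9.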

Additional observations from a re-analysis of the deposited data

Results flagged for a closer look

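What follows are the differences between treated times, where the change against the shared controls differed between 2 times of SIN-1 by limma's test of the difference itself (adjusted p under 0.05). All are falls with time on the log2 scale, as differences of 2 group means of 3 arrays.

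From 70 min to 4 h the loading factor Cdc6 differed by -0.87, Fen1 by -0.40, Mcm5 by -0.34 and Mcm7 by -0.30. Only that of Cdc6 passed in every fit with 1 array left out.

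From 4 h to 8 h all 6 helicase subunits fell: Mcm2 differed by -0.62, Mcm3 by -0.53, Mcm4 by -0.54, Mcm5 by -0.76, Mcm6 by -0.73 and Mcm7 by -0.51. Of the licensing genes, Cdc6 differed by -0.61, Cdt1 by -0.52, geminin (Gmnn) by -0.43 and Orc6 by -0.41. Of the origin firing genes, Mcm10 differed by -0.78 and Cdc45 by -0.57. At the fork, Pcna differed by -0.77, its loader subunit Rfc5 by -0.46, Pold2 by -0.39, Pold3 by -0.51, Rpa2 by -0.51 and Fen1 by -0.51. Rrm2 differed by -0.40, Chaf1a by -0.47, Uhrf1 by -0.61 and Dtl by -1.03. Of these 22, 12 passed in every fit with 1 array left out. The calls of Cdc45, Cdt1, Chaf1a, Fen1, Gmnn, Orc6, Pold2, Pold3, Rfc5 and Rrm2 ended without 4 h replicate 1. Each of these also ended without at least 1 other array. Chaf1a, Orc6 and Rfc5 passed in 1 of the 6 fits, and Cdt1, Gmnn and Rrm2 in 2. Cdc45, Pold2 and Pold3 passed in 3 and Fen1 in 4.

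From 70 min to 8 h the helicase subunits Mcm2 differed by -0.78, Mcm3 by -0.70, Mcm4 by -0.77, Mcm5 by -1.10, Mcm6 by -0.86 and Mcm7 by -0.80. All 5 licensing genes fell: Cdc6 differed by -1.48, Cdt1 by -0.79, Gmnn by -0.48, Orc6 by -0.44 and Orc1 by -0.43. Mcm10 differed by -0.77, Cdc45 by -0.46 and Cdc7 by -0.46. Pcna differed by -0.95, Rfc5 by -0.44, Pold2 by -0.54, Pold3 by -0.49, Pole by -0.42, Rpa2 by -0.37 and Fen1 by -0.91. Rrm2 differed by -0.60, Chaf1a by -0.53, Chaf1b by -0.64, Uhrf1 by -0.83 and Dtl by -1.31. Of these 26, 7 calls ended in 1 or more fits with 1 array left out. They were Cdc45 (70 min replicate 1 or 3, 8 h replicate 1 or 2), Pole (70 min replicate 1, 8 h replicate 2), Rpa2 (70 min replicate 2, 8 h replicate 3), Pold3 (70 min replicate 3, 8 h replicate 3), Cdc7 (8 h replicate 3), Orc1 (8 h replicate 2 or 3) and Rfc5 (70 min replicate 2, 8 h replicate 2 or 3). Orc1, Orc6 and Pold3 were not called against control at any time.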

How the results depend on the processing

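No difference of a named gene that was called changed sign under any alternative run. With at least 1.5-fold asked for beside the adjusted p, the calls were 16 at 70 min and 10 at 4 h against control. Of all genes 1.43% and 0.396% were called so. Lower calls were 1 for 4 h against 70 min, 8 for 8 h against 4 h and 15 for 8 h against 70 min. Over all 18166 genes these were 140, 63 and 268. Centring arrays on their medians gave 1 and 13 lower calls for 4 h against 70 min and 8 h against 4 h, and a median of -0.36 for 8 h against 70 min. The compared groups alone gave 1 and 14 for the same 2 counts. Leaving out the 3 arrays of highest median left only replicate 1 at 70 min, so no count against 70 min is given for it. As a covariate, the array median gave medians of 0.52 at 70 min, -0.15 for 4 h against 70 min and -0.53 for 8 h against 70 min. Array weights gave 1 lower call at 8 h (Cdc6). The cause of these shifts was not tested. For the alternatives other than the fold, here and below, the shares of all genes are not given. Whether a shift in such a count was particular to these genes is therefore not shown.

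With 1 array left out, calls higher ran from 20 to 27 at 70 min and from 13 (without 4 h replicate 1) to 21 at 4 h, and the 70 min median from 0.36 (without 70 min replicate 1) to 0.48. Lower calls ran from 1 to 4 for 4 h against 70 min (1 without 4 h replicate 3, 2 without 70 min replicate 2 or 3 or 4 h replicate 2), from 12 to 23 for 8 h against 4 h and from 22 to 27 for 8 h against 70 min. Of the calls against control, 18 of 27 at 70 min and 13 of 20 at 4 h passed in every such fit.

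Samples with the same replicate number did not deviate together (18 correlations from -0.32 to 0.24, 5 over 0.1). With the replicate number as a block, 28 and 20 genes were called higher at 70 min and 4 h and 4, 24 and 28 lower in the 3 comparisons between times. With 3 arrays a group, changes of 0.5 and 0.3 were often missed on simulated data. That simulation changed fewer genes than were called at 70 min, where members with differences from 0.30 were called. A gene not called is not shown to be unchanged.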
